A study of Mus musculus with 18 samples.

Results

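Cells make cholesterol and the lipids of myelin through a chain of enzymes, and 36 genes of that chain were followed here, of 27179 genes in the deposited tables by gene and 35729 transcripts in the table of Hoxc8 mutants. They were chosen by name: 7 genes of the mevalonate steps, 11 of the sterol steps, 3 SREBP regulators, 2 of fatty acid synthesis, 6 desaturases and elongases, 4 of the sphingolipid backbone and 3 that make galactolipids. All 36 were found in every table.

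RNA of motor neurons (MNs) sorted from mouse spinal cord was sequenced in 18 samples. Cells of p8 Chat-IRESCre::Ai9 mice, wildtype by their label, were sorted by tdTomato from brachial, thoracic and lumbar cord (3 samples each, 3 cords pooled per sample). In these mice Cre, driven by the choline acetyltransferase gene, turns on tdTomato for good, so that any cell with a past of Chat expression can carry it. At e12.5, cells carrying Mnx1-GFP, which labels MNs by the promoter of a homeodomain gene, were sorted from brachial cord of 3 samples of Hoxc8 MNΔearly embryos and 6 control samples. The labels call all 6 wildtype. The study names Hoxc8 fl/fl embryos as controls of the mutants and Mnx1-GFP embryos for the comparison of stages, taken from partly different brachial segments, so both kinds may be among the 6. In the mutants a floxed Hoxc8 is deleted by Olig2-Cre, which is active in the precursors of MNs and also of oligodendrocytes. The study asked how MNs differ between stages, between regions of the cord at p8, and with loss of Hoxc8.

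Cholesterol is built from acetyl-CoA, first by the mevalonate enzymes into isoprenoid units, then by joining these into squalene, closing the rings of lanosterol and trimming it. SREBP2, the product of Srebf2, is held in the endoplasmic reticulum by Insig proteins while sterols are plentiful and switches on the genes of the chain when they are scarce. SREBP1, from Srebf1, does the same mainly for fatty acid genes. Myelin, the membrane that oligodendrocytes wrap around axons, is rich in cholesterol and in galactosylceramide and sulfatide, which oligodendrocytes make from ceramide with very long and 2-hydroxylated acyl chains. Neurons make cholesterol as well, above all while axons grow.

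The deposited tables hold no values per sample. For each gene they give a base mean, which is the mean over samples of read counts divided by a size factor for depth, and a log2 fold change with its standard error (SE). The level of a group, in normalized counts, is what base mean and fold change together imply. No spread can be given for it, and the SE and the 95% interval of the fold change stand for the replicate error. Genes were called between stages and regions at a Benjamini-Hochberg adjusted p under 0.05 by the Wald test of the authors, over all genes with a p.

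In genes of a single read, the base mean gives back the size factors of single libraries. At e12.5 a read was worth 0.586 to 0.755 normalized counts, and in the p8 brachial libraries 0.690, 1.04 and 11.9, so 1 of those 3 was far shallower. Its value of 11.9 rests on 11 genes. The regional table likewise holds 1 shallow library per region. There 1 read was worth 6.24, 4.39 and 1.96 normalized counts in brachial, thoracic and lumbar cord, against 0.365 to 0.588 in the 6 others. These 3 values rest on few genes, 11, 22 and 13. The labels do not tell which replicates are the shallow ones, and no result could be given without them. Markers of cell types also differed between the stages. Of the summed levels of all genes, the 10 oligodendrocyte markers (among them Mbp and Mobp) held 43.5% at p8 and 0.00932% at e12.5, and 10 of 10 were called higher at p8. Of 6 MN markers 4 were lower at p8 and none higher (led by Mnx1, Slc18a3 and Isl1), with summed levels of 337 at p8 and 5148 at e12.5. The p8 samples thus held little of the markers that define their label. Of 7 pan-neuronal genes (led by Tubb3, Nefl and Map2) 6 were lower at p8, and Nefl was not called, with 31245 at p8 and 10055 at e12.5. It made up most of their summed level of 35425 at p8, against 84296 for the list at e12.5. Summed levels at p8 and e12.5 were 119314 and 394 for the precursors of oligodendrocytes (led by Bcas1, Olig1 and Gpr17), 32397 and 69.6 for microglia (Csf1r, Itgam and Cx3cr1), 2062 and 103 for endothelium (Cldn5, Pecam1 and Flt1), and 1443 and 188 for Schwann cells (Pmp22, Egr2 and Prx). Astrocyte markers summed to 6855 at p8 and 6677 at e12.5 but moved apart: Gfap had 3146 at p8 and 0.385 at e12.5 and was called higher, as were 2 others of the 4 with a p, whereas Slc1a2, which has no p, had 514 at p8 and 5604 at e12.5. In bulk samples, more cells of a type and more RNA per cell cannot be told apart, and the part of these cell types in the values of the lipid genes was not tested.

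Promoter sequence gives a first view of the genes. Many promoters of sterol genes carry the sterol regulatory element, where SREBPs bind, beside CCAAT boxes, where NF-Y binds, and GC boxes, where Sp1 binds. In the RefSeq promoters of GRCm38.p6, 250 bases before to 50 after a start site, 30 of the 36 genes had a window. Fdps, Fdft1, Sqle, Scd1, Scd2 and Fa2h had none. Both strands were searched for the sterol regulatory element in the form TCACNCCAC alone (N is any base), for CCAAT, for the GC box as GGGCGG and for the E-box CACGTG. The stretches shown run up to the base before the start site, 5′ to 3′ on the strand of the gene, and capitals mark matches to any of the 4, which read ATTGG for CCAAT and CCGCCC for GGGCGG on the other strand. Different motifs share no base in them. These 5 are from genes of the chain that were called higher at p8. The first, of Hmgcs1, holds the single match to TCACNCCAC found in the 30 genes.

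Hmgcs1 (chr13:119690161-119690350, plus strand): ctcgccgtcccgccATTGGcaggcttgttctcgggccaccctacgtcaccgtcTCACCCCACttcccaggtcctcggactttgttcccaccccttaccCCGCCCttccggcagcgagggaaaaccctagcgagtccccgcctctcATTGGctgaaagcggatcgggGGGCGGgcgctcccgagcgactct
Idi1 (chr13:8885516-8885605, plus strand): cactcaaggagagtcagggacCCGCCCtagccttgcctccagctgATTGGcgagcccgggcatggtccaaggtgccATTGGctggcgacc
Mvk (chr5:114444179-114444268, plus strand): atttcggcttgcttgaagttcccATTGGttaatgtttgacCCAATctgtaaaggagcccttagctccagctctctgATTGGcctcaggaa
Ebp (chrX:8193513-8193602, minus strand): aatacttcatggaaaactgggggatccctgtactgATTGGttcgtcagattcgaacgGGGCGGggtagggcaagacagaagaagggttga
Msmo1 (chr8:64733579-64733688, minus strand): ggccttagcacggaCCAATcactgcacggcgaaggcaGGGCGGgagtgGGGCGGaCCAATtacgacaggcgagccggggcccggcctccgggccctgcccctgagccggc

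TCACNCCAC was found in 1.24% of all 32851 windows, at bases -137 to -129 in Hmgcs1 (base -1 is the last before the start site). A CCAAT box lay in a window of 14 of the 15 mevalonate and sterol genes with one, against 41.1% of all 27025 genes and 10 of the 15 other members. Mvk held 5 of them. Its presence did not separate the genes by their stage difference: of those 15 genes, 11 of 12 called higher at p8 held it, as did 3 of 3 not called. The 2 stretches that follow are from sterol genes that were not called between stages.

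Nsdhl (chrX:72918431-72918520, plus strand): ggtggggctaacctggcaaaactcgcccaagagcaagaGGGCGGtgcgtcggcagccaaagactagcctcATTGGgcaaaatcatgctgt
Tm7sf2 (chr19:6067851-6067940, minus strand): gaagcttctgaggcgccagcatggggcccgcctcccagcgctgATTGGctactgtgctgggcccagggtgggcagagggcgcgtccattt

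The last 3 come from genes of myelin lipids with the steepest stage differences. Gal3st1 (first of its 3 start sites) holds a CCAAT box, whereas in the windows of Ugt8a and Elovl7 these letters were not found and GGGCGG was. GGGCGG lay in a window of 38.2% of all genes and 23 of the 30 members, and CACGTG in 8.09% of all genes and 7 of the 30. A match is a string of letters, not a site shown to be bound. Nor does the lack of a match show that a promoter has no such element. Elements that differ from these letters or lie outside the windows were not searched for.

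Gal3st1 (chr11:3983546-3983635, plus strand): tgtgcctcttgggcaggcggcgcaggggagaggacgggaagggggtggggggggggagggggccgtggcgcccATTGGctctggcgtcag
Ugt8a (chr3:125938653-125938742, minus strand): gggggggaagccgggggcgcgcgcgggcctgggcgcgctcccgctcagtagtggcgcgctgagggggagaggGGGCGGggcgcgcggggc
Elovl7 (chr13:108214314-108214403, plus strand): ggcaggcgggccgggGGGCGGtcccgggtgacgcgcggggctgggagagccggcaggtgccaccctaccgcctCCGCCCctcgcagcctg

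Between stages, 26 of the 36 genes were called higher at p8, 1 was called lower (Srebf2) and 9 were not called. Over all 18787 genes tested, 23.0% were called higher and 24.8% lower. The median log2 fold change, p8 over e12.5, was 1.80 over the 36 genes and 0.04 over all genes tested, and 33 of the 36 had a positive value. Of the 26, 17 differed over 4-fold, 10 over 10-fold and 4 over 100-fold. Together the 36 genes took up 0.911% of all levels summed over genes for p8, and 0.494% for e12.5. These folds rest on the size factors of the authors. The summed levels of all genes were higher at p8 by 1.23 on the log2 scale, and by 0.41 without the 10 oligodendrocyte markers, while the median gene past a base mean of 10 was higher by 0.02. Scaled to summed levels, each log2 fold change falls by 1.23, so that the sign of 9 genes with smaller positive values turns (Insig1, Elovl6, Sqle, Dhcr7, Srebf1, Sptlc2, Tm7sf2, Acaca and Nsdhl), and 16 genes are called higher at p8 and 6 lower (Fdft1, Nsdhl, Tm7sf2, Srebf1, Srebf2 and Fasn). By step, those called higher are then 3 of 3 galactolipid genes, 4 of 6 desaturases and elongases, 2 of 4 backbone genes, 3 of 7 mevalonate genes and 4 of 11 sterol genes. The shares of all genes called higher or lower under this scaling were not computed. These counts therefore cannot be set beside the rest of the genes.

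**Figure D1:**
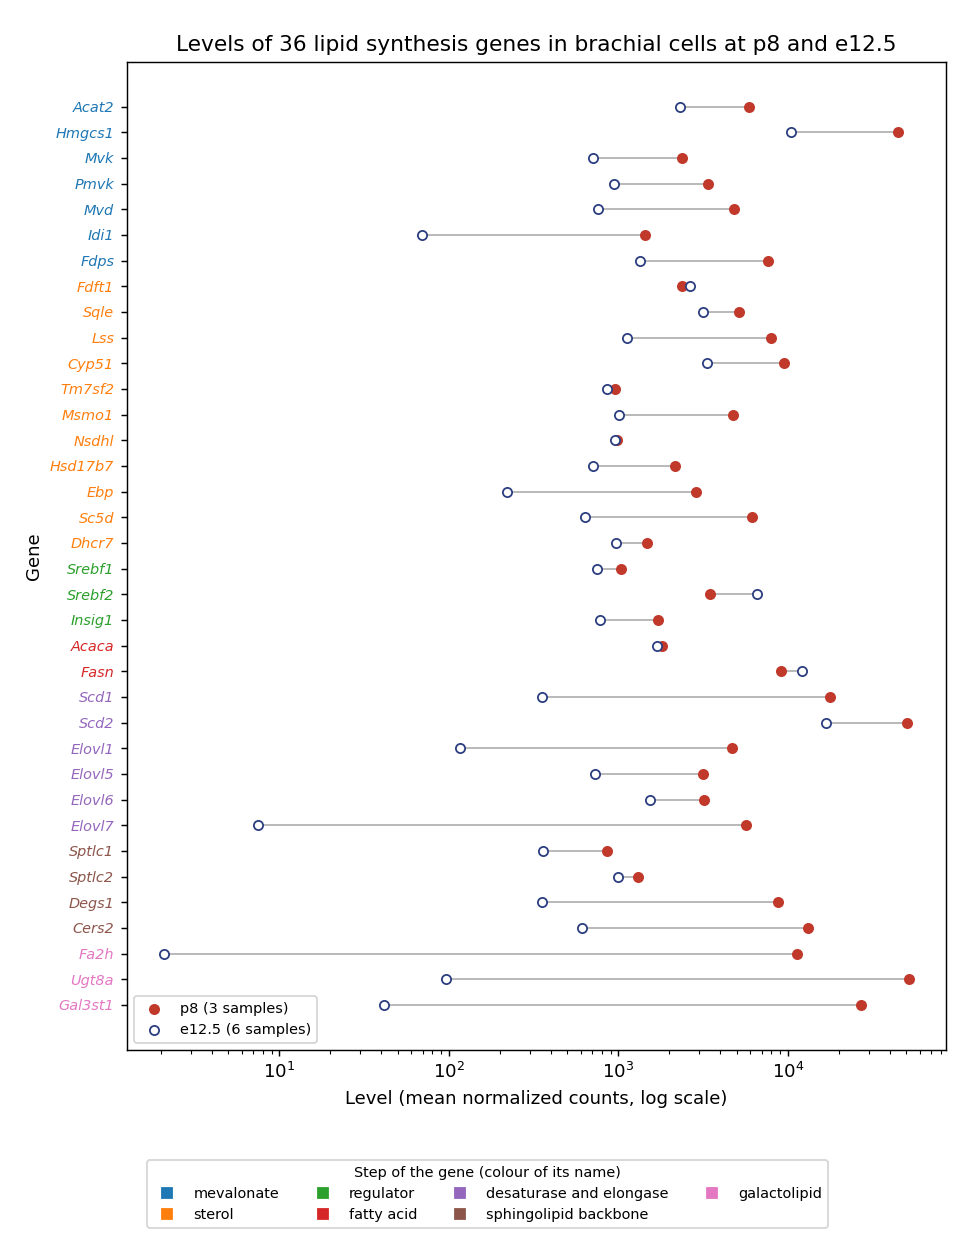
Levels of the 36 genes (mean normalized counts, log axis) in brachial samples at p8 (filled, 3 samples) and e12.5 (open, 6 samples), joined by a line for each gene. Names are coloured by step. The levels of Fa2h lie farthest apart (11284 at p8 and 2.09 at e12.5), while those of Nsdhl, Tm7sf2 and Acaca nearly coincide.

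Of the steps, the galactolipid enzymes had the highest median log2 fold change, 9.34. Fa2h, which adds the 2-hydroxyl group to fatty acids of myelin galactolipids, had a level of 11284 normalized counts at p8 and 2.09 at e12.5 (log2 fold change 12.40, SE 0.77, adjusted p = 3.68e-56 by the Wald test). Ugt8a, which joins galactose to ceramide to make galactosylceramide, had 51518 at p8 and 96.1 at e12.5 (9.07, SE 0.55). Gal3st1, which sulfates galactosylceramide to sulfatide, had 26944 at p8 and 41.6 at e12.5 (9.34, SE 0.55, adjusted p = 3.15e-62). The e12.5 level of Fa2h is worth a few reads per library, and those of Ugt8a and Gal3st1 are well above that. Added up over the 36 genes, the share of these 3 was 27.2% at p8 and 0.184% at e12.5. Per kilobase of exon, Gal3st1 and Ugt8a were in places 1 and 2 of the 36 at p8, with 13201 and 11358 normalized counts per kb, and they stood in places 33 and 32 at e12.5, with 20.4 and 21.2.

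The enzymes that shape the acyl chains were all called higher at p8, 6 of 6 (median log2 fold change 3.74), though Scd2 and Elovl6 were not called when scaled to summed levels. Elovl7, an elongase of long-chain acyl-CoAs, had 5701 normalized counts at p8 and 7.53 at e12.5 (9.56, SE 0.78). Elovl1, which makes the very long chains of sphingolipids, had 4711 at p8 and 116 at e12.5 (5.34, SE 0.30, adjusted p = 1.27e-67). The elongases of shorter or polyunsaturated chains differed less. Elovl5, of polyunsaturated fatty acids, had 3167 at p8 and 724 at e12.5 (2.13, SE 0.17), and Elovl6, which carries palmitate to stearate, had 3197 at p8 and 1541 at e12.5 (1.05, SE 0.45, adjusted p = 0.039).

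The desaturases Scd1 and Scd2, which place the double bond of oleate, are neighbouring paralogs on chromosome 19, so reads shared by both could be split between them. Scd1 had 17704 normalized counts at p8 and 354 at e12.5 (5.64, SE 0.61), and Scd2 had 50159 at p8 and 16750.4 at e12.5 (1.58, SE 0.51). Scd2 was the higher of the pair at both stages: per kilobase, the level of Scd1 was 0.394 of that of Scd2 at p8 and 0.0236 at e12.5.

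In the sphingolipid backbone, 3 of 4 genes were called higher at p8 (median log2 fold change 2.84), and Sptlc1 was not among them when scaled to summed levels. Degs1, the desaturase that turns dihydroceramide into ceramide, had 8786 normalized counts at p8 and 354 at e12.5 (4.63, SE 0.40). Cers2, the ceramide synthase that takes very long acyl chains, had 13170.4 at p8 and 612 at e12.5 (4.43, SE 0.34). Of the pair that forms serine palmitoyltransferase, the first enzyme of the branch, Sptlc1 had 858 at p8 and 361 at e12.5 (1.25, SE 0.16, adjusted p = 1.78e-14). Sptlc2, the other subunit, was not called, with 1302 at p8 and 989.9 at e12.5 (0.40, SE 0.65, adjusted p = 0.688) and an interval of -0.88 to 1.67, which holds the value of Sptlc1.

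All 7 genes of the mevalonate steps were called higher at p8, with a median log2 fold change of 2.10. Scaled to summed levels, Mvd, Idi1 and Fdps were called, while Acat2 (0.11), Hmgcs1 (0.86), Mvk (0.52) and Pmvk (0.61) were not. The order of the chain was not the order of the differences. Acat2, which joins acetyl-CoA units at the start, had 5878 normalized counts at p8 and 2309.9 at e12.5 (1.35, SE 0.48, adjusted p = 0.0133). Hmgcs1, which makes HMG-CoA, had 44576 at p8 and 10413 at e12.5 (2.10, SE 0.50). Per kilobase it stood in place 3 of the 36 at p8 (9703) and in place 2 at e12.5 (2267), and thus high at both stages. Not every step of the chain is among the 36 genes. The 2 kinases further along, Mvk and Pmvk, had 2387 and 3373 at p8 and 708 and 943 at e12.5, with log2 fold changes of 1.75 (SE 0.46) and 1.84 (SE 0.48). Mvd, the decarboxylase that makes isopentenyl diphosphate, had 4817 at p8 and 760.0 at e12.5 (2.66, SE 0.49). Idi1, which isomerizes that unit, differed most of the 7, with 1438 at p8 and 69.8 at e12.5 (4.36, SE 0.57, adjusted p = 2.02e-13). Fdps, which links the units to farnesyl diphosphate, had 7656 at p8 and 1344 at e12.5 (2.51, SE 0.49). In the GENCODE M21 annotation, 26.7% of its exon bases overlap a gene on the same strand (Gm43738), and 12.1% of those of Hmgcs1 and 9.22% of those of Idi1 overlap genes on the opposite strand (Gm48342 and Gm48574). Whether the counts used strand is not given in the sources used here, so reads of these pairs may be mixed.

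**Figure D2:**
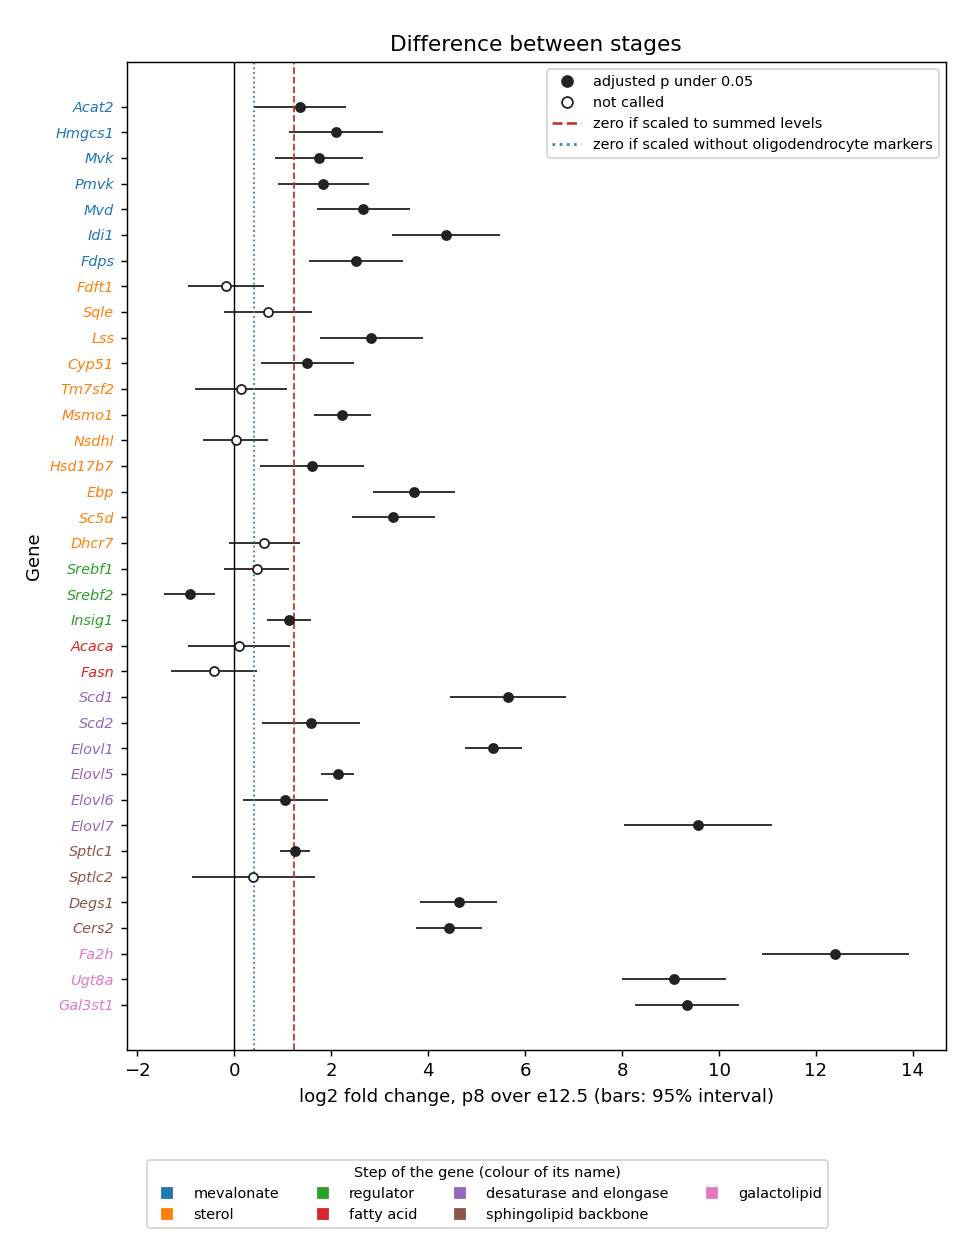
The log2 fold change of each gene, p8 over e12.5 (positive: higher at p8), with its 95% interval, filled where the adjusted p was under 0.05. The dashed and dotted lines show where 0 would lie if the stages were scaled to summed levels of all genes (1.23) or to those without the oligodendrocyte markers (0.41). The galactolipid genes and Elovl7 lie far to the right of all lines, and Srebf2 left of 0.

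The sterol steps were mixed, with 6 of 11 genes called higher at p8, none lower and 5 not called (median log2 fold change 1.51). Scaled to summed levels, Cyp51 (0.27) and Hsd17b7 (0.37) were not called and Fdft1 (-1.40), Nsdhl (-1.21) and Tm7sf2 (-1.09) were called lower, which left 4 higher and 3 lower. The first 2 enzymes, which commit the chain to sterols, were among those not called. Fdft1, squalene synthase, had 2359 normalized counts at p8 and 2651 at e12.5 (-0.17, SE 0.40, adjusted p = 0.807), and Sqle, squalene epoxidase, had 5139.7 at p8 and 3166 at e12.5 (0.70, SE 0.46, adjusted p = 0.22). Of the exon bases of Fdft1, 18.3% overlap Ctsb on the opposite strand.

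Lss, which closes the sterol rings to lanosterol, had 7910.4 at p8 and 1118 at e12.5 (2.82, SE 0.54). Cyp51, the 14-demethylase, had 9432 at p8 and 3320.3 at e12.5 (1.51, SE 0.49). Of the genes that remove the methyl groups at carbon 4, Msmo1 had 4730.2 at p8 and 1007 at e12.5 (2.23, SE 0.30), and Hsd17b7 had 2157 at p8 and 709.7 at e12.5 (1.60, SE 0.55). Nsdhl, which acts between these 2 enzymes, had 976 at p8 and 958 at e12.5 (0.03, SE 0.34, adjusted p = 0.971). Its interval of -0.65 to 0.70 and that of Fdft1, -0.94 to 0.61, were the 2 of the 9 genes not called that lay within 2-fold either way. This holds for the size factors of the authors alone. Scaled to summed levels of all genes, the values of Nsdhl (-1.21) and Fdft1 (-1.40) lie beyond 2-fold. Without the oligodendrocyte markers in that sum, the values (-0.38 and -0.58) lie within 2-fold, but their intervals, lower by 0.41, reach beyond it.

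Ebp, the isomerase that moves the ring double bond, had 2859 at p8 and 220.0 at e12.5 (3.70, SE 0.43, adjusted p = 1.54e-16), and Sc5d, which adds the next one, had 6140.4 at p8 and 633 at e12.5 (3.28, SE 0.44). These neighbours in the chain had the largest values of the 11 sterol genes. Dhcr7, which removes a double bond at the end of a branch to cholesterol, had 1479 at p8 and 963 at e12.5 (0.62, SE 0.37, adjusted p = 0.173). Tm7sf2, a sterol reductase of the ring, had 949.7 at p8 and 861 at e12.5 (0.14, SE 0.49, adjusted p = 0.867), and 12.1% of its exon bases overlap Vps51 on the same strand.

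Among the regulators, Srebf2 was the one gene of the 36 called lower at p8, with 3488 normalized counts at p8 and 6609 at e12.5 (-0.92, SE 0.27, adjusted p = 0.00185, interval -1.45 to -0.39). Its fold change stayed negative under each scaling. Of the 18 mevalonate and sterol genes, 13 were called higher at p8 and 0 lower with the size factors of the authors. Scaled to summed levels, 7 of them were called higher and 3 lower (Fdft1, Nsdhl and Tm7sf2). Srebf1 was not called, with 1038 at p8 and 753 at e12.5 (0.46, SE 0.34, adjusted p = 0.279), and was called lower when scaled to summed levels (-0.77). Insig1, the sterol-sensing anchor of SREBPs and itself induced by them, had 1704 at p8 and 778 at e12.5 (1.13, SE 0.23, adjusted p = 3.12e-06), a value that turns to -0.10 when scaled to summed levels.

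The 2 genes of fatty acid synthesis were not called, although Fasn was called lower at p8 when scaled to summed levels (-1.66). Acaca, which makes malonyl-CoA, had 1805 at p8 and 1694 at e12.5 (0.09, SE 0.53, adjusted p = 0.919), and Fasn, fatty acid synthase, had 9085 at p8 and 12202 at e12.5 (-0.43, SE 0.45, adjusted p = 0.491). Of the summed levels of the 36 genes, this pair held 3.30% at p8 and 18.3% at e12.5. Per kilobase, Fasn stood in place 21 of the 36 at p8, with 829.9 normalized counts per kb, and in place 3 at e12.5, with 1115.

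Around the 36 genes, a list of 56 related lipid genes gave 23 higher at p8, 6 lower and 17 not called of 46 with a p, at a median log2 fold change of 0.45. Acly, which supplies cytosolic acetyl-CoA, had 15557 normalized counts at p8 and 13666 at e12.5 and was not called (0.19, SE 0.32), nor was Fads1, a desaturase of polyunsaturated chains (3105 at p8 and 4389 at e12.5; -0.50, SE 0.50). Tecr, which finishes each round of elongation, had 15205 at p8 and 5352 at e12.5 and was called higher (1.51, SE 0.27). Acsl1, which activates fatty acids, had the smallest p of the list (5146 at p8 and 340.1 at e12.5; 3.92, SE 0.17), followed among those higher by Aacs, which activates acetoacetate (7706 at p8 and 1094 at e12.5; 2.82, SE 0.30). Of those lower, Degs2 (10.03 at p8 and 294 at e12.5; -4.87, SE 0.50) and Mbtps2, a protease that frees SREBPs (81.9 at p8 and 799 at e12.5; -3.29, SE 0.45), had the smallest p.

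Degs2 fell where its paralog among the 36 rose. The level of Degs1 was 876 times that of Degs2 at p8 and 1.20 times at e12.5 (873 and 1.20 per kilobase). The p8 level of Degs2 was only 10.03 normalized counts, and 1 read in the shallow p8 library was worth 11.9, so the size of the p8 ratio is uncertain. Picked after their values were seen, Cers4 and Insig2 were also called lower at p8, with 92.8 and 262 normalized counts at p8 and 441 and 544 at e12.5. Not all paralogs went this way, as Cers5 was called higher at p8 (1347 at p8 and 803 at e12.5). Cers6, which has no p, had 687 at p8 and 2600 at e12.5, above both Cers2 and Cers4 at e12.5. The ratio of Cers2 to Cers4 was 142 at p8 and 1.39 at e12.5 (474 and 4.63 per kilobase), and that of Insig1 to Insig2 was 6.50 at p8 and 1.43 at e12.5 (7.30 and 1.61 per kilobase). A ratio within a stage does not depend on the scaling between stages. The values per kilobase do depend on the exon bases annotated for a gene, 3676 for Cers2 and 12264 for Cers4. Which of these exons the samples used was not tested.

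At p8 the 3 regions were compared, each with the other 2. No gene of the 36 was called in any, by the Wald test and adjusted p, and none had an unadjusted p under 0.05. Over all genes the adjusted p called 0.261% in brachial, 0.0110% in thoracic and 0.0219% in lumbar cord, and the unadjusted p 6.54%, 1.45% and 2.88%. The 3 tables share all 9 samples. The adjusted p of the authors gave 0 calls in each as well.

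The levels were similar along the cord. The highest region was 1.06 to 1.86 times the lowest (median 1.28), and under 1.5 times in 28 of 36 genes. Ugt8a had 28006 normalized counts in brachial, 30979.5 in thoracic and 31025 in lumbar cord, Scd1 had 9515, 8965 and 8743, and Lss, the most even, 4307, 4462 and 4559.6. Nsdhl was the least even, with 548 in brachial, 967 in thoracic and 1020.1 in lumbar cord (log2 fold change of brachial over the others -0.87, SE 0.48, adjusted p = 0.839 by the Wald test). The smallest p of all was that of Elovl5, with 1776 in brachial, 1331 in thoracic and 1326 in lumbar cord (0.42, SE 0.22, interval -0.01 to 0.85, adjusted p = 0.783). In the other comparisons it was that of Acaca (thoracic -0.70) and Srebf2 (lumbar 0.56).

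The sign leaned one way in the ends of the cord: 27 of 36 log2 fold changes were negative in brachial (median -0.21), 22 were positive in thoracic (median 0.03) and 27 positive in lumbar cord (median 0.16), beside medians of 0.02, -0.14 and -0.05 over all genes past that base mean of 10. All 7 mevalonate genes were negative in brachial and positive in lumbar cord, none past the test. As each region is set against the other 2 of the same samples, these opposite signs are not separate observations. Nor are the genes, which were measured in the same libraries. The oligodendrocyte markers had medians of -0.25, -0.05 and 0.21 in the same comparisons, with 10 of 10 positive in lumbar cord, and their part was not tested. The intervals are wide, and lay within 2-fold either way for 3 genes in brachial (Insig1, Elovl5 and Sptlc1), 6 in thoracic and 3 in lumbar cord, so for most genes a 2-fold regional difference was not detectable at this depth and number of samples.

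**Figure D3:**
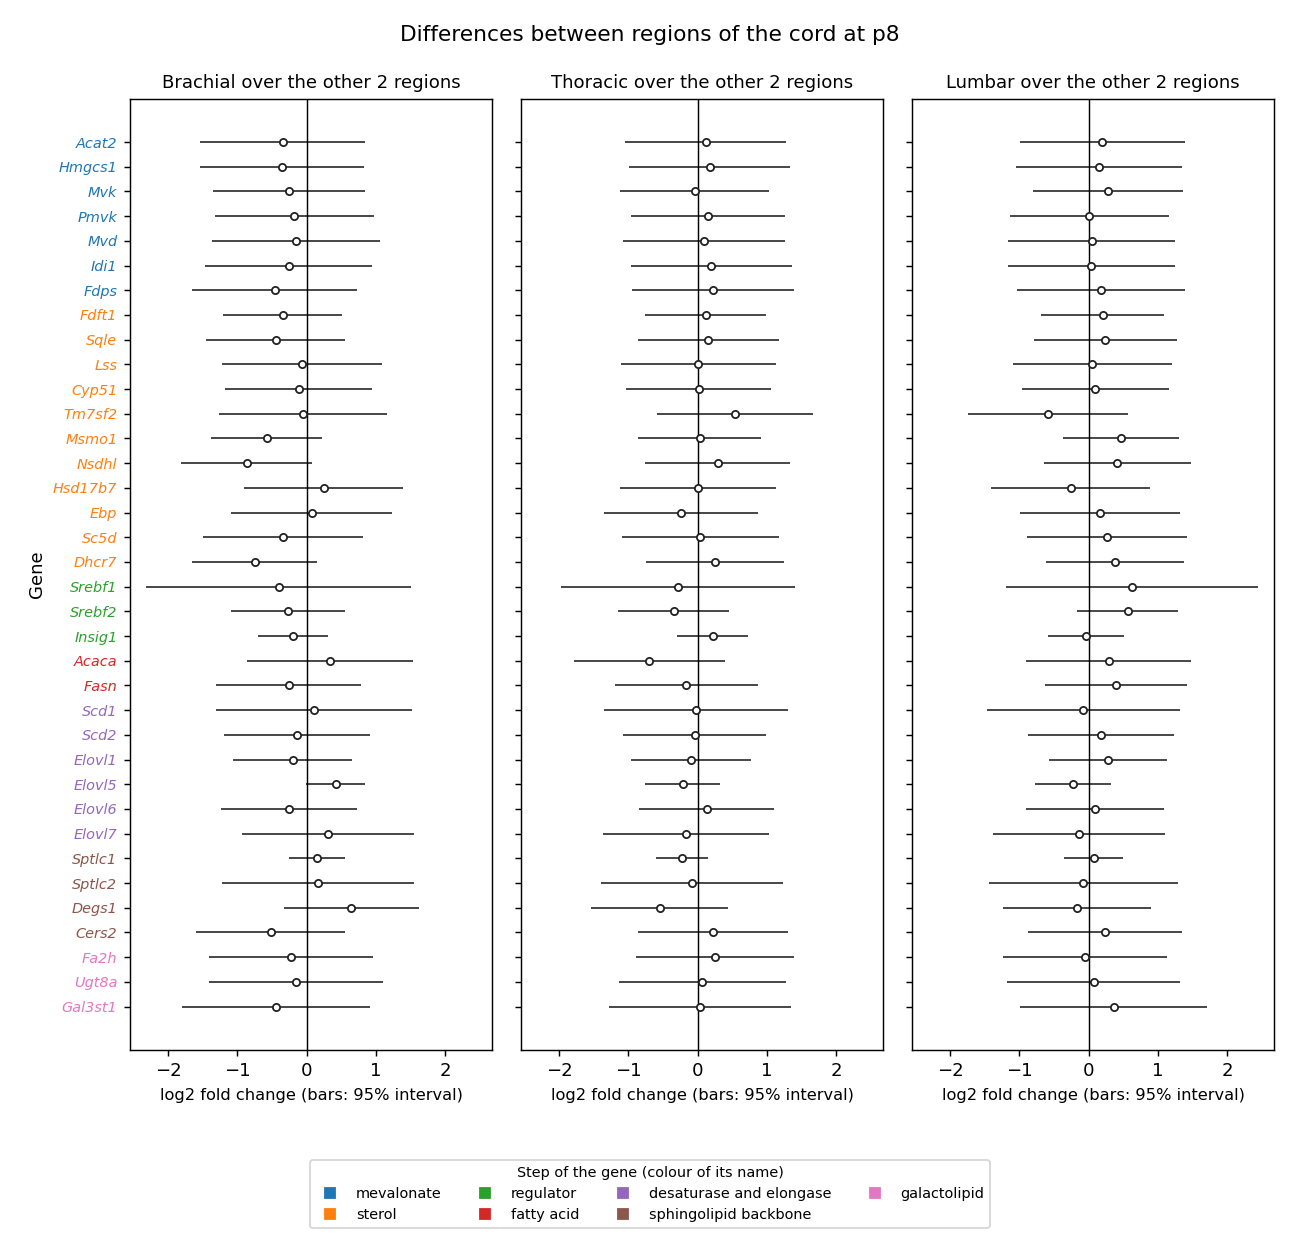
The log2 fold change of each gene in brachial, thoracic and lumbar cord at p8, each over the mean of the other 2 regions (3 against 6 samples), with its 95% interval. Every interval spans 0, and that of Elovl5 in brachial cord comes closest to excluding it.

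The Hoxc8 mutants were compared with controls at e12.5 by transcript, and a gene was read by its transcript with the highest base mean. The table holds 3 control libraries by its single-read transcripts, and which of the 6 these are is not given in the labels. Genes were called here at an unadjusted p under 0.05. Hoxc8 itself had 18623 normalized counts in mutants and 19979.6 in controls, lower in mutants but not called. Its log2 fold change was -0.10 (SE 0.08, unadjusted p = 0.209 and adjusted p = 0.99985 by the Wald test). The study, by contrast, names Hoxc8 itself among the transcripts it found downregulated in the mutants. It also reports that Hoxc8 protein was not detected in mutant MNs at e12.5. Why Hoxc8 was not called here was not tested. Which exons the deletion removes is not given in the sources used here, so the level of Hoxc8 is a weak check of the labels. Fold changes in this table are drawn toward 0: transcripts of a single read have log2 fold changes of at most 0.00176 in size, with an SE of 0.00683, against up to 1.86 and 2.39 in the stage table, so that the intervals do not bound true folds.

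None of the 35 genes with reads was called in the mutants, by the Wald test at a p under 0.05 or after adjustment, while over all 19634 transcripts tested 0.871% passed the first and 0.0357% the second. The smallest p was that of Elovl7 (6.47 normalized counts in mutants and 6.68 in controls, log2 fold change -0.05, SE 0.03). The second transcript of a gene gave no call either. In the 27 genes past a base mean of 10, log2 fold changes ran from -0.11 to 0.11 with a median of -0.03, beside 0.00 over all transcripts, and 17 were negative.

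The levels of the 2 groups follow from these fold changes, and so are drawn together as well. Acat2 had 2679 normalized counts in mutants and 2729 in controls, Sqle had 4627 in mutants and 4723 in controls, and Cyp51 had 4729.8 in mutants and 4749.6 in controls. Srebf2 had 9562 in mutants and 9989.8 in controls (-0.06, SE 0.06), and Scd2, the most abundant, 29232 in mutants and 31152 in controls (-0.09, SE 0.06). Ebp, with 264 in mutants and 286 in controls (-0.11, SE 0.08), and Ugt8a, with 137 in mutants and 127 in controls (0.11, SE 0.08), had the most negative and most positive values of the 27.

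**Figure D4:**
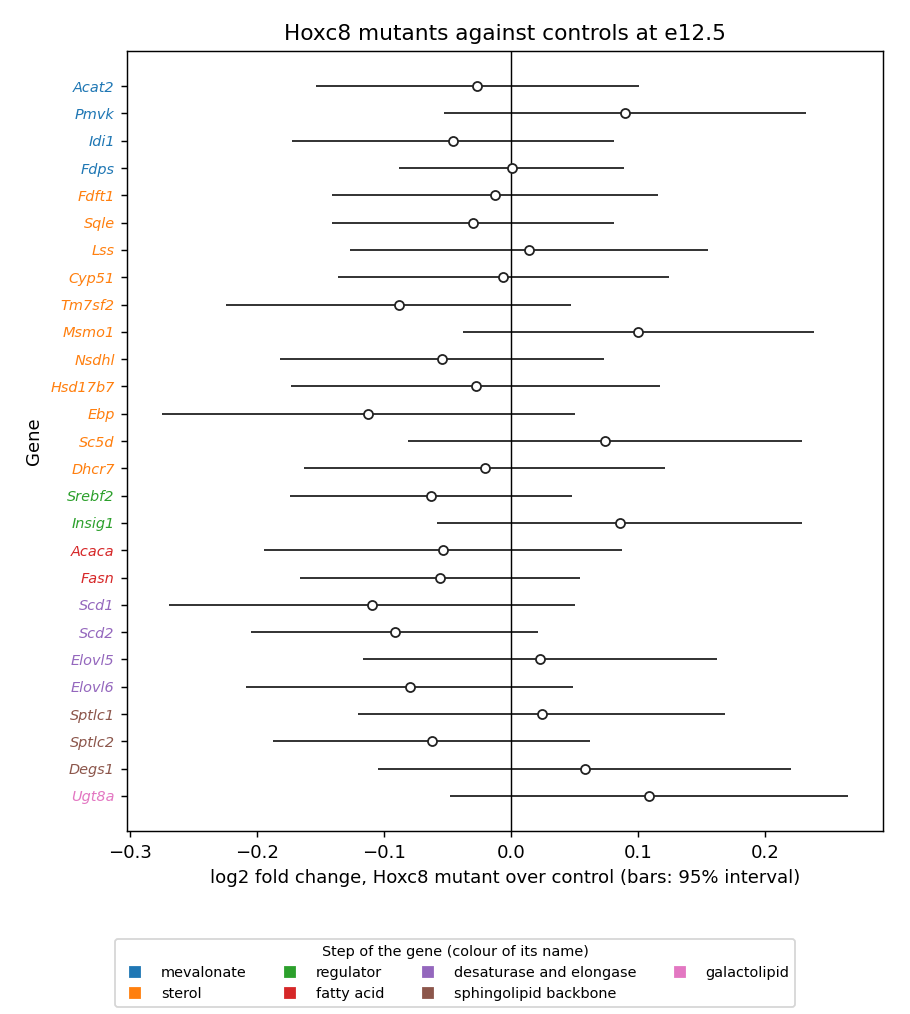
The log2 fold change, Hoxc8 mutants (3 samples) over controls (3 samples), of the 27 genes past a base mean of 10, with its 95% interval. The axis is narrow: all values lie between -0.11 and 0.11 and every interval spans 0. Fdps and Pmvk are shown at base means far below their e12.5 levels in the stage table.

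The other genes cannot be read in this table. Both transcripts of Hmgcs1 were listed at 0, though its e12.5 level was 10413 in the stage table. Of the 9 genes with several transcripts listed, 7 had a leading base mean under 10 (Hmgcs1, Mvk, Mvd, Elovl1, Cers2, Gal3st1 and Srebf1), against 2 of the 27 genes with 1 transcript (Elovl7 and Fa2h, which were low at e12.5 in the stage table too). Fdps and Pmvk, also with several transcripts, did pass a base mean of 10. Their leading base means of 15.1 and 62.4 were still far below their e12.5 levels of 1344 and 943 in the stage table, so these genes too are poorly read here. Why transcripts of such genes hold few reads was not tested.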

How the data were processed

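RNA-Seq of sorted MNs was used from 18 samples, grouped by the stage, region and genotype of their labels. The authors aligned 50-nucleotide reads to GRCm38/mm10 with HISAT (printed as HISET2 in the methods), counted reads by featureCounts, tested the groups in DESeq2 and deposited 5 tables of these comparisons. The methods name 3 replicates at e12.5. Versions, an annotation release and the use of strand are not given in the sources used here. The base mean is a signal made by the authors, the mean of read counts divided by size factors. The deposited log2 fold changes and their SEs come from the model of the authors. Each p-value, with an adjusted one beside it, was deposited by the authors from a Wald test. The study's own comparisons thus are the data, since no table holds a value per sample. Depth per sample is therefore known only as the size factors read from single-read genes, and no model was refitted.

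Signs were set to p8 over e12.5 and mutant over control. The Benjamini-Hochberg adjustment was run over every gene or transcript with a p-value, and 95% intervals taken as normal. Levels were solved from the base mean and fold change, weighted by 3 p8 and 6 e12.5 samples, 3 and 6 per region, and 3 and 3 for the mutants. With these weights, levels at p8 over brachial levels of the regional table had medians of 0.86, 0.83 and 0.84 (log2) in genes over 6 lower at p8, within 1 and over 6 higher, against 1.26, 0.84 and 0.26 with 3 and 3. Symbols came from RefSeq GRCm38.p6 (93.0% of genes and 99.2% of transcripts), as did promoters, and exon lengths and overlaps from GENCODE M21. The exon length of a gene is the union of all its annotated exons.

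Every member is named. Of the related lipid genes, those with the 3 highest base means and the 2 smallest p in each direction are named, and of each marker list the 3 with the highest base mean, except 1 marker that is not reported here. Members and lists were chosen with earlier results of these data known. Alternatives were the adjusted p of the authors, a base mean over 10, a fold over 4, re-centring, other sample weights and another transcript. Calls and levels were tested on simulated data. Scripts ran in Python 3.11.15 (matplotlib 3.10.9, scipy 1.17.1, pandas 2.3.3, numpy 2.4.6).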

Additional observations from a re-analysis of the deposited data

How the results depend on the processing

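The 26 genes higher and 1 lower at p8 were also called with the adjusted p of the authors, after a filter on the base mean, and with fold changes re-centred on the median gene. With a fold over 4 required as well, 17 were higher and 0 lower at p8. The 2 other scalings were chosen after seeing the data, and the shares of all genes called under them were not computed. Per summed level of all genes, 16 were higher and 6 lower at p8, and the log2 fold change turned for Sqle (-0.53), Elovl6 (-0.18), Acaca (-1.14), Dhcr7 (-0.61), Sptlc2 (-0.84), Insig1 (-0.10), Nsdhl (-1.21), Tm7sf2 (-1.09) and Srebf1 (-0.77). Without the oligodendrocyte markers in that sum, 22 were higher and 1 lower, and it turned for Acaca (-0.32), Sptlc2 (-0.015), Nsdhl (-0.38) and Tm7sf2 (-0.27). With 3 in place of 6 samples at e12.5, or 2 in place of 3 at p8, the share of the 36 genes was 0.919% or 0.890% at p8 and 0.40% or 0.549% at e12.5. The regional comparisons gave 0 calls with the adjusted p of the authors, the filter, the fold limit and re-centring, as did the mutant comparison with these, the adjusted threshold and the second transcript. No paired analysis was possible because the tables hold no values per sample, and for the same reason leaving out replicates was not run, so the weight of the shallow libraries in each fold change is not known.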
